A study of Bos taurus with 6 samples.

Results

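Fatty acid and triglyceride synthesis enzymes were followed in liver biopsies of Angus × Simmental cattle, through genes chosen by their Ensembl identifiers: ENSBTAG00000015980 (FASN), ENSBTAG00000017567 (ACACA), ENSBTAG00000045728 (SCD) and ENSBTAG00000026356 (DGAT1). The count table analysed here holds 3 of these 4 identifiers among its 23833, those of FASN, ACACA and DGAT1. SCD, a desaturase that turns saturated into monounsaturated fatty acids, was not analysed here. The symbols come from the Ensembl cattle annotation, as the table gives identifiers alone. The 3 libraries from cattle given rumen-protected niacin were set against 3 libraries from control cattle. Rumen-protected niacin is vitamin B3 coated to pass the rumen microbes. Both groups were offered Bermudagrass hay freely, with 1.61 kg of tall fescue seed free of endophyte, 1.61 kg of a corn and soybean meal pellet and 0.1 kg of molasses a day. No source used here gives the dose of niacin, how long it was fed or how old the animals were. The question was how niacin changed gene expression in the liver.

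ACACA and FASN make fatty acids. The enzyme of ACACA, acetyl-CoA carboxylase alpha, makes malonyl-CoA, the committed step of the pathway, and fatty acid synthase, encoded by FASN, builds palmitate from it. The enzyme of DGAT1, diacylglycerol O-acyltransferase, joins a fatty acid to diacylglycerol in the last step of triglyceride synthesis, whatever the source of that fatty acid. In cattle, adipose tissue rather than liver is the main site of fatty acid synthesis, and the liver esterifies much fatty acid taken up from blood.

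Niacin libraries held 54478409 to 111478194 counts and control libraries 48593701 to 57315443. Genes with enough counts to be tested numbered 14839. The labelled tissue could not be checked against marker genes of liver or of other cell types, because no table used here pairs the other identifiers with symbols. In bulk tissue, fewer cells of a type and less RNA per cell cannot be told apart. The labels do not state that the libraries come from separate animals, although each has its own code. The p-values therefore judge differences against the spread between these libraries, which edgeR estimates with information shared across genes.

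FASN and ACACA rose with niacin, each about 5-fold, and DGAT1 showed no change that passed the test. The higher levels of FASN and ACACA held in each niacin library against each control library. Of all genes tested, 14.2% rose with niacin at an adjusted p under 0.05, and 22% were apart between the groups in this way. Counts reached at most 1067 for FASN and 384 for ACACA in any library.

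FASN had 658, 1067 and 791 counts in niacin replicates 1, 2 and 3, and 140, 153 and 22 counts in control replicates 1, 2 and 3. Scaled for library size and composition (TMM factors), these were 12.0, 10.1 and 8.49 CPM (counts per 1e+06 counts of the library) with niacin and 2.60, 3.27 and 0.401 CPM in controls. The niacin libraries lay close together and above all controls, the lowest of them 2.60 times the highest control, while control replicate 3 lay far below the other controls. Mean FASN levels were 2.09 ± 1.50 CPM in controls and 10.2 ± 1.73 CPM after niacin (SD, n = 3 each). The log2 fold of niacin over control was 2.29 ± 0.57 (SE), at an adjusted p of 0.0119 (edgeR quasi-likelihood test, Benjamini-Hochberg adjustment over all genes tested). On the linear scale this was 4.88-fold, with a 95% interval from 2.09-fold to 11.4-fold.

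The FASN estimate leaned on control replicate 3. Its 22 counts have an exact 95% Poisson interval of 13.8 to 33.3 counts, or 0.251 to 0.607 CPM, which covers counting error only and does not reach the interval of control replicate 1 (2.18 to 3.06 CPM). The highest FASN level among controls was 8.16 times the lowest. Of the 5303 tested genes with a mean between 1 and 10 CPM, 3.24% had a larger ratio between their highest and lowest control, and the median ratio was 1.82. Without that library the FASN log2 fold was 1.79, with an edgeR adjusted p of 0.0203. Control replicate 3 was not low for ACACA, where it lay between the other controls. For DGAT1 it was the lowest of the 6 libraries, at 68.3 CPM, with niacin replicate 3 next at 80.3 CPM. That gap was small beside the one for FASN, at 0.401 CPM in control replicate 3 and 2.60 CPM in control replicate 1. The TMM factor of control replicate 3, 1.13, was the largest of the 6 libraries, which lowers its scaled levels.

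ACACA had 329, 319 and 384 counts in niacin replicates 1, 2 and 3, and 56, 34 and 45 counts in control replicates 1, 2 and 3. The scaled levels were 5.98, 3.02 and 4.12 CPM with niacin and 1.04, 0.727 and 0.820 CPM in controls. Here the controls lay close together and the niacin libraries less so, with replicate 1 at 1.98 times replicate 2. That ratio was usual for tested genes with a mean between 1 and 10 CPM, whose median was 1.96 among the niacin libraries. The lowest niacin library was 2.91 times the highest control. Mean ACACA levels were 0.862 ± 0.160 CPM in controls and 4.37 ± 1.50 CPM after niacin (SD, n = 3 each). For ACACA the log2 fold was 2.34 ± 0.48 (SE, edgeR adjusted p = 0.00235). On the linear scale this was 5.06-fold, with a 95% interval from 2.51-fold to 10.2-fold. In the RefSeq table ACACA overlaps 3 other genes, and which gene reads from shared stretches were given to was not tested.

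**Figure D1:**
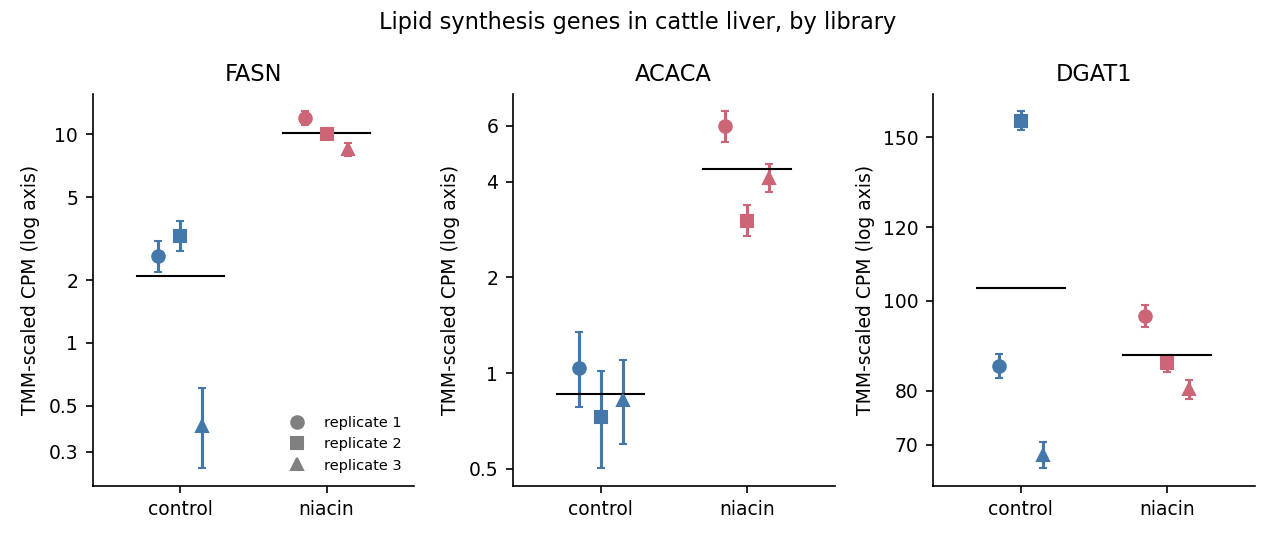
TMM-scaled CPM of FASN, ACACA and DGAT1 (log axes, a scale of its own for each gene) in the 3 control and 3 niacin libraries. Points are libraries, bars their exact 95% Poisson counting intervals and black lines group means; FASN and ACACA are apart between the groups, while for DGAT1 the niacin libraries lie within the control range.

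DGAT1 had 5300, 9051 and 7477 counts in niacin replicates 1, 2 and 3, and 4587, 7315 and 3745 counts in control replicates 1, 2 and 3. The scaled levels were 96.3, 85.6 and 80.3 CPM with niacin and 85.1, 156 and 68.3 CPM in controls. All 3 niacin libraries fell between the lowest and the highest control, and control replicate 2 stood above every other library. Mean DGAT1 levels were 103 ± 46.8 CPM in controls and 87.4 ± 8.16 CPM after niacin (SD, n = 3 each). For DGAT1 the log2 fold was -0.24 ± 0.34 (SE, edgeR adjusted p = 0.711). The 95% interval ran from 0.511-fold to 1.40-fold, so changes within those bounds were not resolved with 3 libraries a group. Without control replicate 2 the DGAT1 log2 fold was 0.18, with an edgeR adjusted p of 0.811, so the sign of its mean difference came from that library. In the RefSeq table DGAT1 overlaps its neighbour HSF1, and which gene reads from the shared stretch were given to was not tested.

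Many other genes were also called. Of the 3 genes, 2 were called higher with niacin and 0 lower, while 14.2% of all genes tested were called higher and 3.46% lower. Among genes with a mean between 1 and 10 CPM, where FASN and ACACA lie, 15.5% were called higher and 1.58% lower. The groups did not overlap, with niacin higher, for 2 of the 3 genes and for 22% of all genes tested, and, with niacin lower, for 0 of the 3 and for 12.4% of all. The median log2 fold over all genes tested was 0.07. In the abundance class of FASN and ACACA, 8.62% of genes had a larger log2 fold than FASN and 8.41% a larger one than ACACA. Of the genes called higher over the whole table, 52.5% had a smaller log2 fold than FASN and 53.7% a smaller one than ACACA, so their folds were near the middle of those calls.

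**Figure D2:**
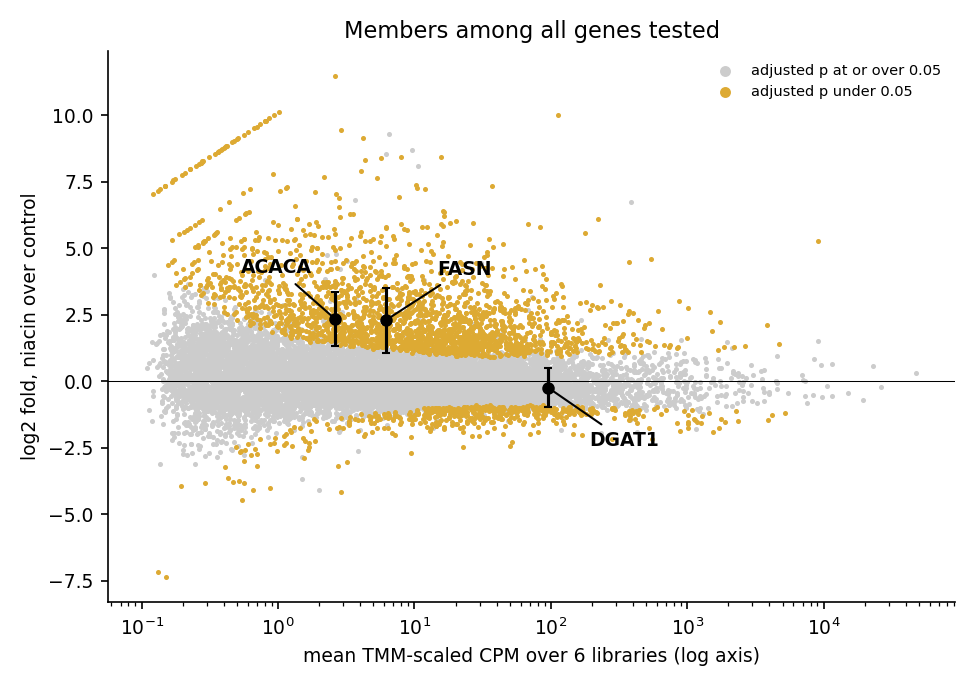
Log2 fold of niacin over control against the mean TMM-scaled CPM over 6 libraries (log axis) for the 14839 genes tested, with genes at an adjusted p under 0.05 in yellow. Black points are FASN, ACACA and DGAT1 with the 95% intervals of their folds; FASN and ACACA lie among the higher calls and the interval of DGAT1 crosses 0.

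A ratio of counts between 2 genes of the same library does not depend on how that library is scaled. The ratios of DGAT1 to FASN and to ACACA were lower in every niacin library than in every control. As DGAT1 showed no change that passed the test, these ratios largely restate the rise of FASN and ACACA. How many other genes separate the groups in their ratio to DGAT1 was not counted. By level, 22% of all genes tested were apart between the groups with niacin higher. Counts of DGAT1 were 8.05, 8.48 and 9.45 times those of FASN in niacin replicates 1, 2 and 3, and 32.8, 47.8 and 170 times in control replicates 1, 2 and 3. The niacin libraries were close to each other and well below all controls. On the log2 scale the mean ratio was 6.01 ± 1.25 in controls and 3.11 ± 0.12 after niacin (SD, n = 3 each), a difference of -2.90. A two-sided exact permutation test gave p = 0.1, which is as low as a 3 against 3 design can go, and 0.15 after Benjamini-Hochberg adjustment over the 3 pairs of genes. Without control replicate 3 the difference was -2.19.

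Counts of DGAT1 were 16.1, 28.4 and 19.5 times those of ACACA in niacin replicates 1, 2 and 3, and 81.9, 215 and 83.2 times in control replicates 1, 2 and 3. Again no niacin library reached the lowest control. The mean log2 ratio was 6.83 ± 0.80 in controls and 4.37 ± 0.42 after niacin (SD, n = 3 each), a difference of -2.45 with an exact permutation p of 0.1 (adjusted 0.15). These ratios also carry the lengths of the transcripts, so they compare libraries and do not rank the genes by level.

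Between the fatty acid synthesis genes themselves no difference in response was resolved. Counts of FASN were 2, 3.34 and 2.06 times those of ACACA in niacin replicates 1, 2 and 3, and 2.5, 4.5 and 0.489 times in control replicates 1, 2 and 3. The niacin ratios lay within the control range, and control replicate 3 was the single library with fewer FASN than ACACA counts. The mean log2 ratio was 0.82 ± 1.66 in controls and 1.26 ± 0.42 after niacin (SD, n = 3 each), a difference of 0.44 with an exact permutation p of 0.9. Without control replicate 3 the difference was -0.48. With this spread among controls, neither equal nor unequal responses of FASN and ACACA can be read from the ratio.

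**Figure D3:**
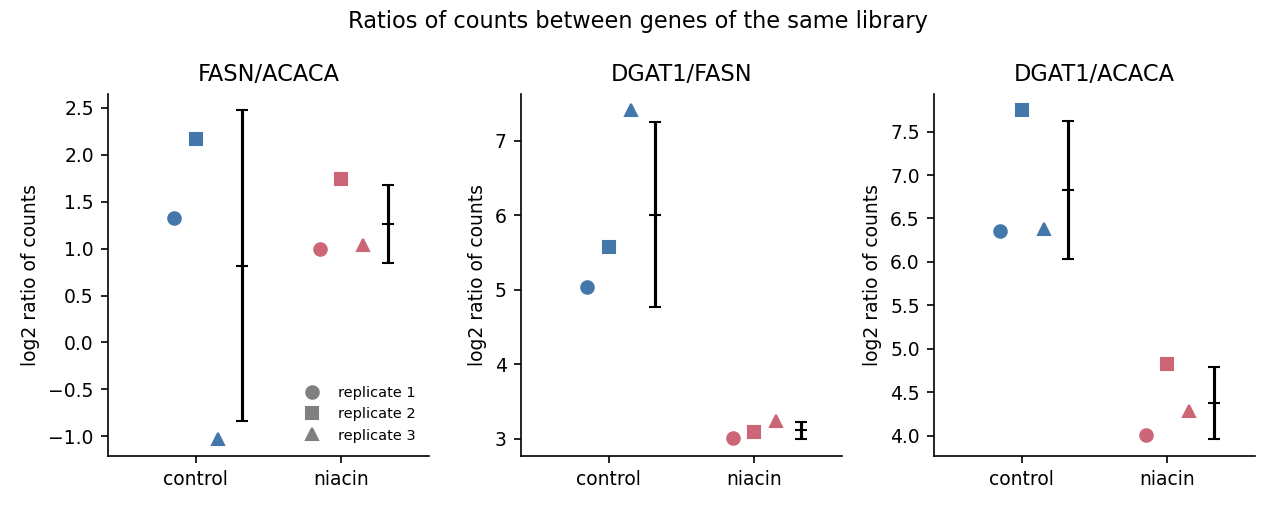
Log2 ratio of counts between 2 genes of the same library for FASN over ACACA, DGAT1 over FASN and DGAT1 over ACACA, in the control and niacin libraries. Points are libraries and black bars the group mean ± SD (n = 3); the ratios of DGAT1 to either fatty acid synthesis gene are lower in all niacin libraries than in any control.

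As plain shares of library counts, with no scaling factor, FASN took 2.01 ± 1.40 counts per 1e+06 of the raw total in controls and 10.1 ± 1.77 after niacin (SD, n = 3 each). ACACA took 0.867 ± 0.147 and 4.37 ± 1.59 counts per 1e+06 in the same order (SD, n = 3 each). Each of these had an exact permutation p of 0.1 (adjusted 0.15 over 3 genes), while DGAT1, at 103 ± 41.6 and 86.8 ± 9.08, had an exact permutation p of 1 (SD, n = 3 each). That 0.1 is again the lowest p the design allows for a single value.

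The code in each library's description ends its letter block with M or F, a letter whose meaning the labels do not state, and each group has 2 libraries with M and 1 with F. Among the M libraries, FASN was 6.82 times and ACACA 5.43 times the control mean with niacin. In the single pair of F libraries, FASN was 3.09 times and ACACA 4.15 times its control. DGAT1 with niacin was 1.15 times the control mean among M libraries and 0.548 times its control in the F pair. The direction was therefore the same under both letters for FASN and ACACA and opposite for DGAT1. With 1 F library a group this has no replicate check. With the letter as a term in the fit, the edgeR adjusted p was 0.00431 for FASN, 0.000929 for ACACA and 0.829 for DGAT1.

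The direction and the calls of FASN and ACACA held under each of 18 alternative settings, in which the log2 fold of FASN ran from 1.79 to 2.76 and that of ACACA from 2.05 to 2.54. The call of FASN was nearest to the threshold without niacin replicate 1, with an edgeR adjusted p of 0.0398. Thinning every library to the smallest total left log2 folds of 2.27 for FASN and 2.28 for ACACA.

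**Figure D4:**
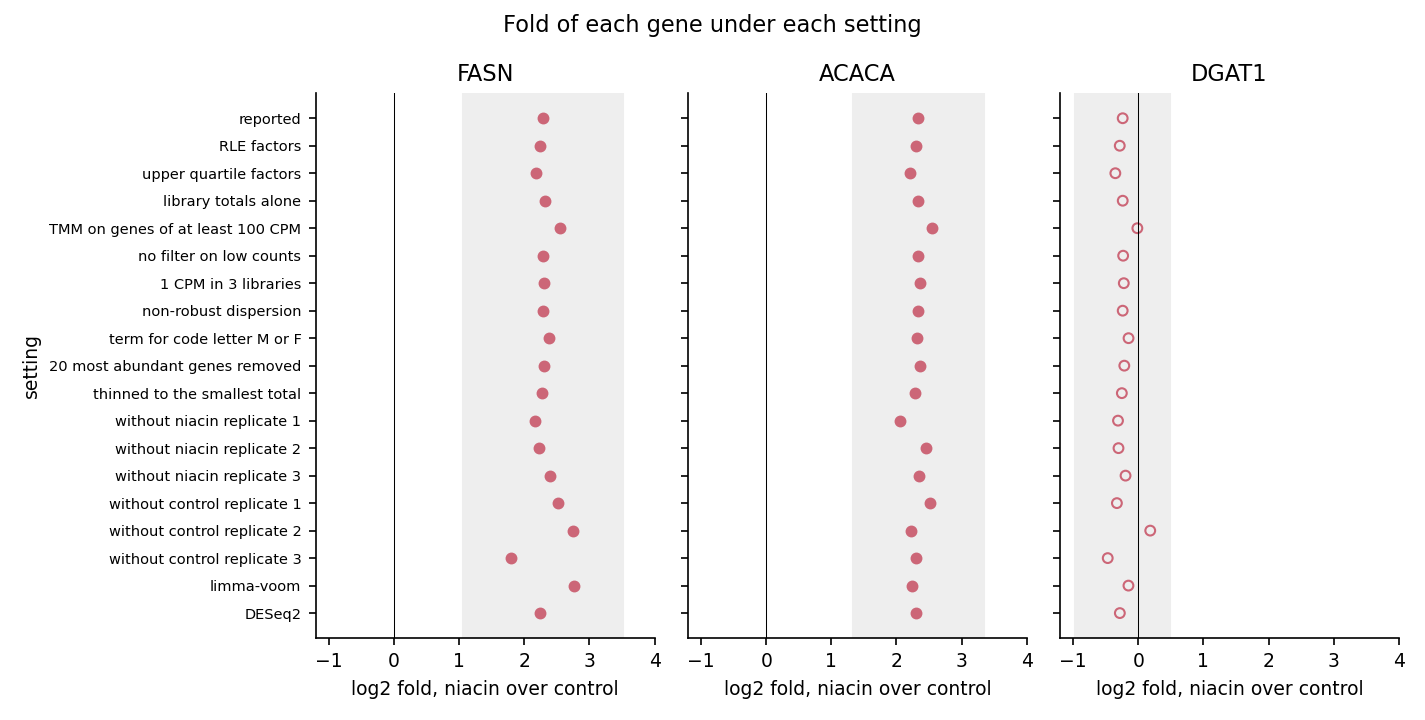
Log2 fold of niacin over control for FASN, ACACA and DGAT1 as reported and under 18 alternative settings, 1 a line. Filled points have an adjusted p under 0.05, open points do not, and the grey band is the 95% interval of the reported fold. FASN stays at or above 1.79 and ACACA at or above 2.05. DGAT1 runs from -0.47 to 0.18, has open points alone and changes sign without control replicate 2.

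The genes whose levels followed each member most closely over the 6 libraries were found by Pearson correlation of log2 CPM. It is given as a description, since the separation of the groups alone raises it. Correlations without control replicate 3, which lay far below the other controls for FASN, were not computed. For FASN the closest was ENSBTAG00000002059 (r = 0.999, n = 6 libraries). That gene stood at 0.822 ± 0.318 CPM in controls and 1.67 ± 0.130 CPM after niacin (SD, n = 3 each), and its own fold did not pass the test (edgeR adjusted p = 0.231). For ACACA it was ENSBTAG00000010927 (r = 0.998, n = 6 libraries), at 0.00618 ± 0.0107 CPM in controls and 0.743 ± 0.543 CPM after niacin (SD, n = 3 each). Its control level was near the floor, where the prior count of 2 used for log2 CPM sets most of the value. For DGAT1 it was ENSBTAG00000018455 (r = 0.995, n = 6 libraries), at 41.0 ± 16.5 CPM in controls and 35.3 ± 3.34 CPM after niacin (SD, n = 3 each). Correlations over 0.95 were found with 110 genes for FASN, 429 for ACACA and 14 for DGAT1. In the same order these were 0.741%, 2.89% and 0.0944% of the genes tested, the members left out. The table used here gives none of these identifiers a name.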

How the data were processed

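The authors deposited raw counts by Ensembl gene identifier, as whole numbers whose totals differ among the 6 libraries, with 0 columns lacking a sample. Libraries were poly(A)-selected and strand-specific, from 1500 ng of total RNA, read as 150-bp pairs, per the labels' protocols. The submitters' processing notes list TopHat2 2.1.1, HTSeq and DESeq2, besides Trimmomatic 0.36, FastQC 11.5, bedtools 2.30.0 and Cufflinks 2.2.1, without their roles. No source used here states the genome build, the annotation or whether counting used strand, so no coordinates are printed. In RefSeq (ARS-UCD2.0), DGAT1 overlaps HSF1 and FASN overlaps the microRNA gene MIR10179. ACACA overlaps C19H17orf78, a long non-coding RNA and a small nuclear RNA. How reads shared by overlapping genes were counted was not tested. RefSeq paired 0 of its 37063 genes with an Ensembl identifier, so the lists of lipid genes and of cell type markers could not be applied.

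Groups came from the agent label, and replicate numbers follow accession order. Genes were filtered with filterByExpr (minimum count 10) and scaled by TMM. Groups were compared over all genes with edgeR 4.0.16 (quasi-likelihood F test, robust, R 4.3.3) at a Benjamini-Hochberg adjusted p under 0.05. The SE is the log2 fold over the square root of F. The script was tested on simulated data. Alternatives were DESeq2 1.42.0, limma-voom (limma 3.58.1), 4 other scalings, 2 filters, non-robust dispersion, the 20 most abundant genes removed, thinning, the code letter and each library left out. Genes most alike used a prior count of 2 and were named by highest correlation. The members and lists were chosen with earlier results of these data known.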

Additional observations from a re-analysis of the deposited data

How the results depend on the processing

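For FASN and ACACA, all 18 alternatives each kept the direction and the call. With each library left out in turn, the log2 fold of FASN ran from 1.79 to 2.75, that of ACACA from 2.05 to 2.52 and that of DGAT1 from -0.47 to 0.18. DGAT1 was called under none of its 18 alternatives (adjusted p from 0.512 to 0.985), and its fold changed sign without control replicate 2. TMM factors taken from genes of at least 100 CPM gave it as -0.01, and shifted the median log2 fold over the table from 0.07 to 0.27. The differences in log2 ratio of DGAT1 to FASN and to ACACA kept their direction with each library left out (-3.38 to -2.19 and -2.69 to -1.99), while that of FASN to ACACA ran from -0.48 to 1.12; the cause was not tested. Over the whole table, 2622 genes were called. With each library left out these ran from 1653 to 3549, and lower genes, 513 in all, from 171 to 1157. Lower genes numbered 820 with upper quartile factors, 206 with TMM on genes of at least 100 CPM and 943 with DESeq2, and 69.6% (upper quartile), 92.2% (TMM on abundant genes) and 80.4% (as reported) of calls were higher. No paired analysis was possible because no label links a niacin library to a control library. Ratios and alternatives planned for SCD were not run. In controls FASN had 22 to 153 counts and ACACA 34 to 56; thinning every library to the smallest total left their adjusted p at 0.0124 and 0.00268, and lower depths were not tried.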

Other observations

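The ratio of FASN to ACACA counts was highest in the library with the code letter F in either group, at 3.34 with niacin against 2 and 2.06 in the M libraries, and at 4.5 in controls against 2.5 and 0.489. DGAT1 was also highest in the F library among controls (156 CPM against 85.1 and 68.3), but not with niacin (85.6 CPM against 96.3 and 80.3). With 1 F library a group these values have no replicate check.

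Spread among libraries of a group was set beside that of genes of like abundance. Among the niacin libraries, the highest FASN level was 1.41 times the lowest, and 83.1% of the 5303 genes with a mean between 1 and 10 CPM had a larger ratio. Among controls that FASN ratio was 8.16, set by control replicate 3 at 0.401 CPM, with the other controls at 2.60 and 3.27 CPM. Among controls the highest ACACA level was 1.43 times the lowest, and 76.4% of those genes had a larger ratio. Among the niacin libraries that ACACA ratio was 1.98, and 49% of those genes had a larger one. DGAT1 was 1.20 times higher in the highest than in the lowest niacin library, and 92.6% of 5266 genes with a mean between 10 and 100 CPM had a larger ratio. Among controls that ratio was 2.29, with 11.9% of these genes above it, and was set by control replicate 2 at 156 CPM, with the other controls at 85.1 and 68.3 CPM. No difference in spread between the groups was tested, and for FASN and DGAT1 it rests on those single libraries.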
